A study of Mus musculus with 10 samples.

Results

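The genes of potassium channels and of their accessory subunits were followed in RNA from immune cell preparations of the mouse brain, to see which of them moved with neuronal, microglial or other glial RNA and whether any differed between mice given A53T α-synuclein and mice given an empty vector. They were taken by symbol: the protein-coding rows of the count table whose name starts with Kcn, without Kcnj8 and Kcnj13, with at least 50 reads summed over the 10 libraries. This gave 78 of the 94 protein-coding Kcn rows, in a table of 45906 rows, with 449864 reads in all. Kcnj8 with 821 reads and Kcnj13 with 85 reads were left out by name, and 14 rows fell under the minimum. Kcnq1 with 66 reads and Kcnu1 with 85 reads lay just inside it, and Kcnk7 with 47 and Kcnj5 with 44 reads just outside. The genes were thus selected on their reads summed over all libraries, and their levels are given as a description only.

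The A53T group was 5 male C57BL/6 mice that received an AAV1/2 vector for human A53T α-synuclein, a mutant form of the protein found in familial Parkinson disease. The EV group was 5 male C57BL/6 mice that received the same kind of vector empty. The injection took place when the mice were 10 to 12 weeks old, and the RNA was taken 16 weeks after it, at 26 to 28 weeks. All therefore carried a viral vector, and the sources used here do not name the promoter of the transgene. Substantia nigra and striatum were digested with collagenase and immune cells enriched on a Percoll gradient, with no cell sort named, and 0.5 ng of total RNA per mouse was sequenced as single reads of 75 nt.

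Potassium channels let potassium ions leave or enter cells down their gradient and so set the resting potential and end action potentials. Voltage-gated channels open on depolarization and dominate in neurons, inward rectifiers and the tandem-pore (K2P) channels carry resting currents and take up potassium in astrocytes, and calcium-activated channels couple firing to calcium entry. Microglia at rest rely on a K2P current, and activated microglia are known for the voltage-gated channel Kcna3 and the calcium-activated channel Kcnn4.

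The libraries were not pure microglia. Library totals were 14323389 to 20698259 counts in A53T and 12386305 to 21780086 in EV, and 3 reads, the limit that a count of 0 allows, corresponded to 0.137 to 0.238 CPM (counts per 1000000). The summed level of 18 homeostatic microglia markers was 463 to 9486 CPM in A53T and 532 to 3772 CPM in EV, that of 15 neuron markers 418 to 3854 CPM in A53T and 2054 to 3922 CPM in EV, and that of 14 astrocyte markers 1623 to 13940 CPM in A53T and 5620 to 13422 CPM in EV, with no marker of these 3 lists at 0 in all libraries. A53T replicates 3 and 4 stood apart, with the most microglial and the least neuronal RNA and with 15.1% and 10.9% of counts from mitochondrial ribosomal RNA, against 31.8 to 47.7% in the other A53T libraries and 33.4 to 50.9% in EV. The transgene had 10 reads in A53T replicate 3, 1217 to 2223 in the other A53T libraries and at most 1 in EV. The salivary gland gene Bpifa2 had 100 reads or more in A53T replicates 1 and 2 and EV replicates 1, 2 and 3.

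Most potassium channel reads came from genes of voltage-gated pores, which took 56.8% of them, followed by accessory subunits with 14.9%, inward rectifiers with 11.7%, calcium- or sodium-activated channels with 9.76% and K2P channels with 6.82%. Per length, as RPKM (CPM per kilobase of exon), Kcnip2, which binds Kv4-type channels, was at 25.5 ± 15.3 RPKM (SD over the 10 libraries), and Kcnj10, the main inward rectifier of astrocytes, at 22.4 ± 8.09 RPKM. Kcnh3, a forebrain channel of the ether-a-go-go group, had 19.2 ± 11.9 RPKM and the beta subunit Kcnab2 15.3 ± 9.94 RPKM. These SDs give the spread over libraries and do not measure how certain the order is. Within every library Kcnip2 was above Kcnh3 and Kcnh3 above Kcnab2, while Kcnj10 was above Kcnip2 in some libraries and below it in others. The K2P genes of interest for microglia were lower, with Kcnk6 at 4.68 ± 4.42 RPKM and Kcnk13 at 3.39 ± 2.18 RPKM, beside Kcnk2 at 15.2 ± 9.84 RPKM and Kcnk1 at 11.2 ± 5.11 RPKM. Of the 78 genes, 12 had a mean of 10 RPKM or more and 30 a mean under 1 RPKM.

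**Figure D1:**
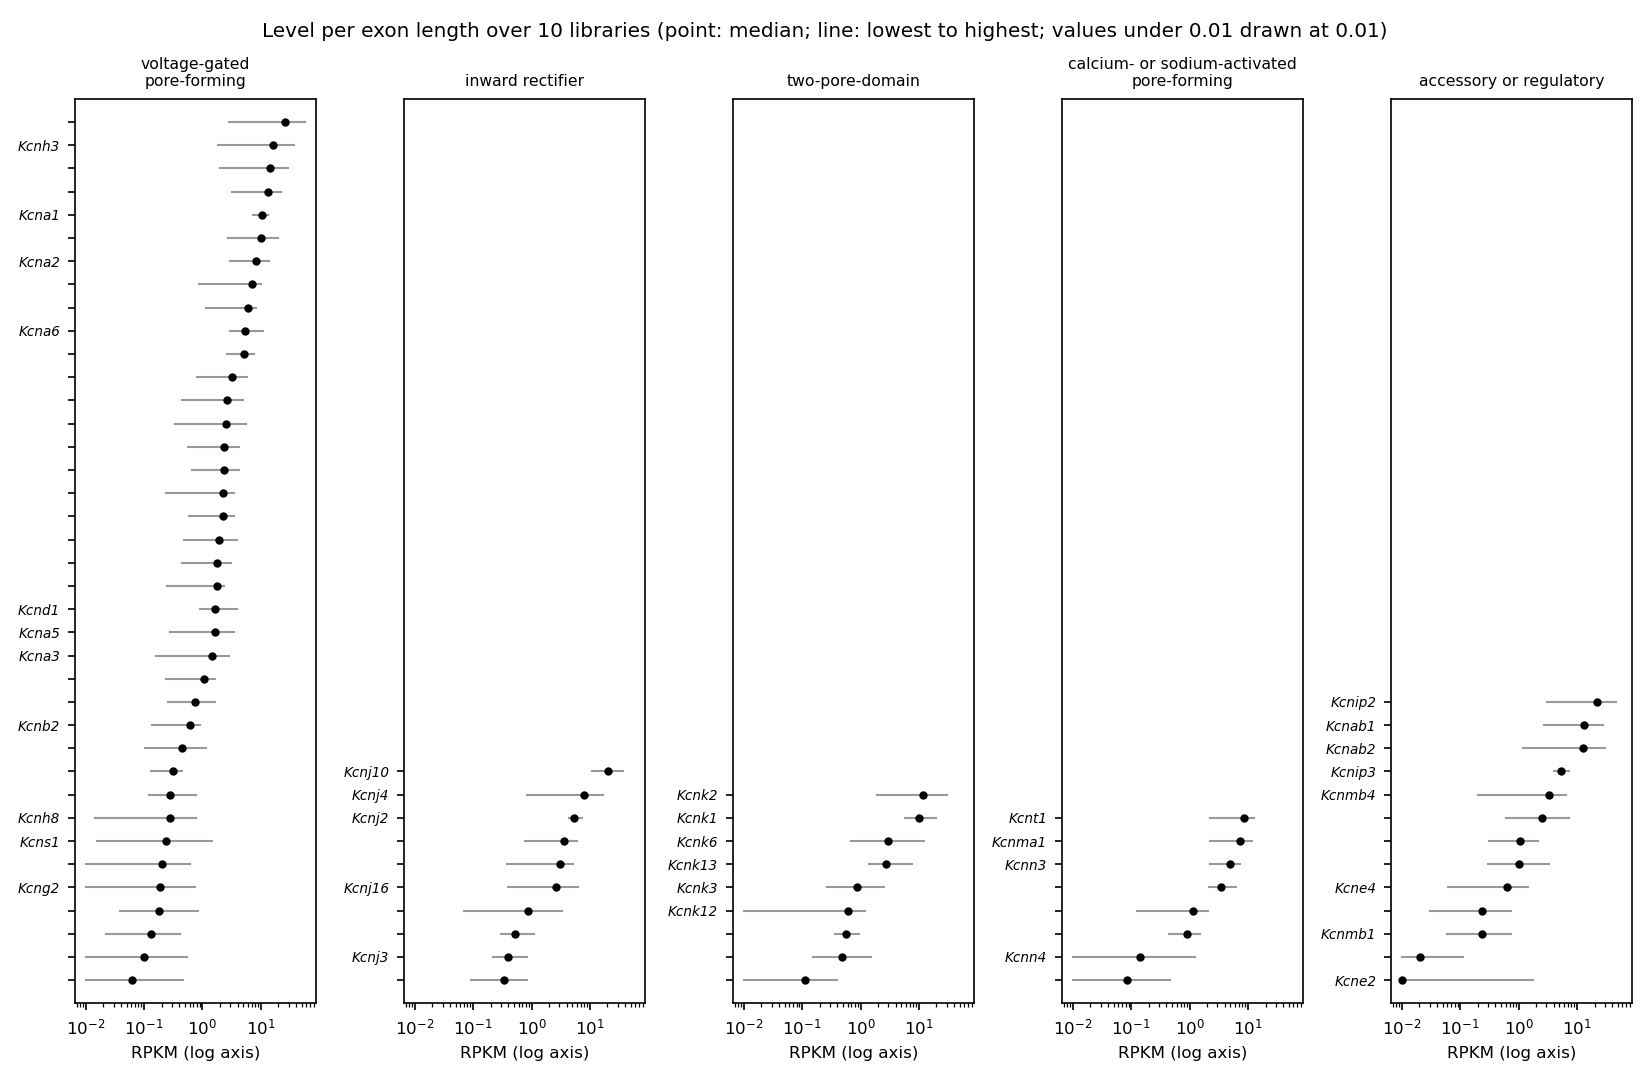
Level of each of the 78 genes in RPKM (log axis, values under 0.01 drawn at 0.01) in a panel per family, where points are medians over the 10 libraries of both groups, lines run from the lowest to the highest library, and genes described in the text are named. Kcnj10, Kcnk2, Kcnt1 and Kcnip2 stand at the top of their panels, and Kcna1, Kcnj2 and Kcnip3 have the shortest lines.

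To ask which genes moved with which cells, each library was placed on a composition axis, the mean log2 CPM of the microglia markers minus that of the neuron markers. A53T replicates 1 to 5 lay at 0.943, -2.58, 3.18, 4.21 and -0.911, and EV replicates 1 to 5 at -2.39, -0.877, -0.982, 0.501 and 0.878. The groups overlapped on it, with A53T holding the lowest library and the highest pair. The slope of a gene is its log2 change per unit of this axis, with the group in the fit, so that a positive slope means more of the gene where microglial RNA was high. In bulk samples, fewer cells of a type and less RNA per cell cannot be told apart.

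Potassium channel genes went mostly with neuronal RNA. Of the 71 that passed the filter on low counts, 43 had a slope toward neurons at an adjusted p under 0.05, against 17.7% of all 17409 genes tested, and 4 a slope toward microglia, against 17.0% of all genes, by edgeR's quasi-likelihood test with Benjamini-Hochberg adjustment. The median slope was -0.30 log2 per unit over the 71 and 0.018 over all genes. The 7 not tested were Kcnmb2, Kcnn4, Kcna7, Kcnq1, Kcnu1, Kcnk5 and Kcne2. Among voltage-gated pores 22 of 36 tested were called toward neurons and 2 toward microglia, and among inward rectifiers 5 of 10 and none. Calcium- or sodium-activated channels had 5 of 6 called toward neurons, accessory subunits 8 of 11, and neither had one toward microglia. K2P channels were the most divided family, with 3 of 8 called toward neurons and 2 toward microglia. Without A53T replicates 3 and 4, which hold the microglial end of the axis, 16 of 73 tested were called toward neurons and 1, Kcnk6, toward microglia, against 5.20% and 5.90% of all 18178 genes tested in that fit, with a median slope of -0.21 over the 73. The markers of astrocytes followed the neuronal end as well, with a median slope of -0.28 and 14 of 14 called, and those of oligodendrocytes the microglial end, with a median slope of 0.33 and 11 of 13 called toward microglia. A neuronal and an astrocytic source, or a microglial and an oligodendrocyte one, therefore largely cannot be told apart on this axis. With a term for the libraries with Bpifa2 reads, 38 genes were called toward neurons and 2, Kcnk6 and Kcnk13, toward microglia, against 13.4% and 11.9% of all genes. Each side of that split held 5 libraries, and no correlation is given within so few. With the mitochondrial ribosomal RNA rows removed the counts were again 43 and 4, against 17.8% and 17.1% of all genes.

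**Figure D2:**
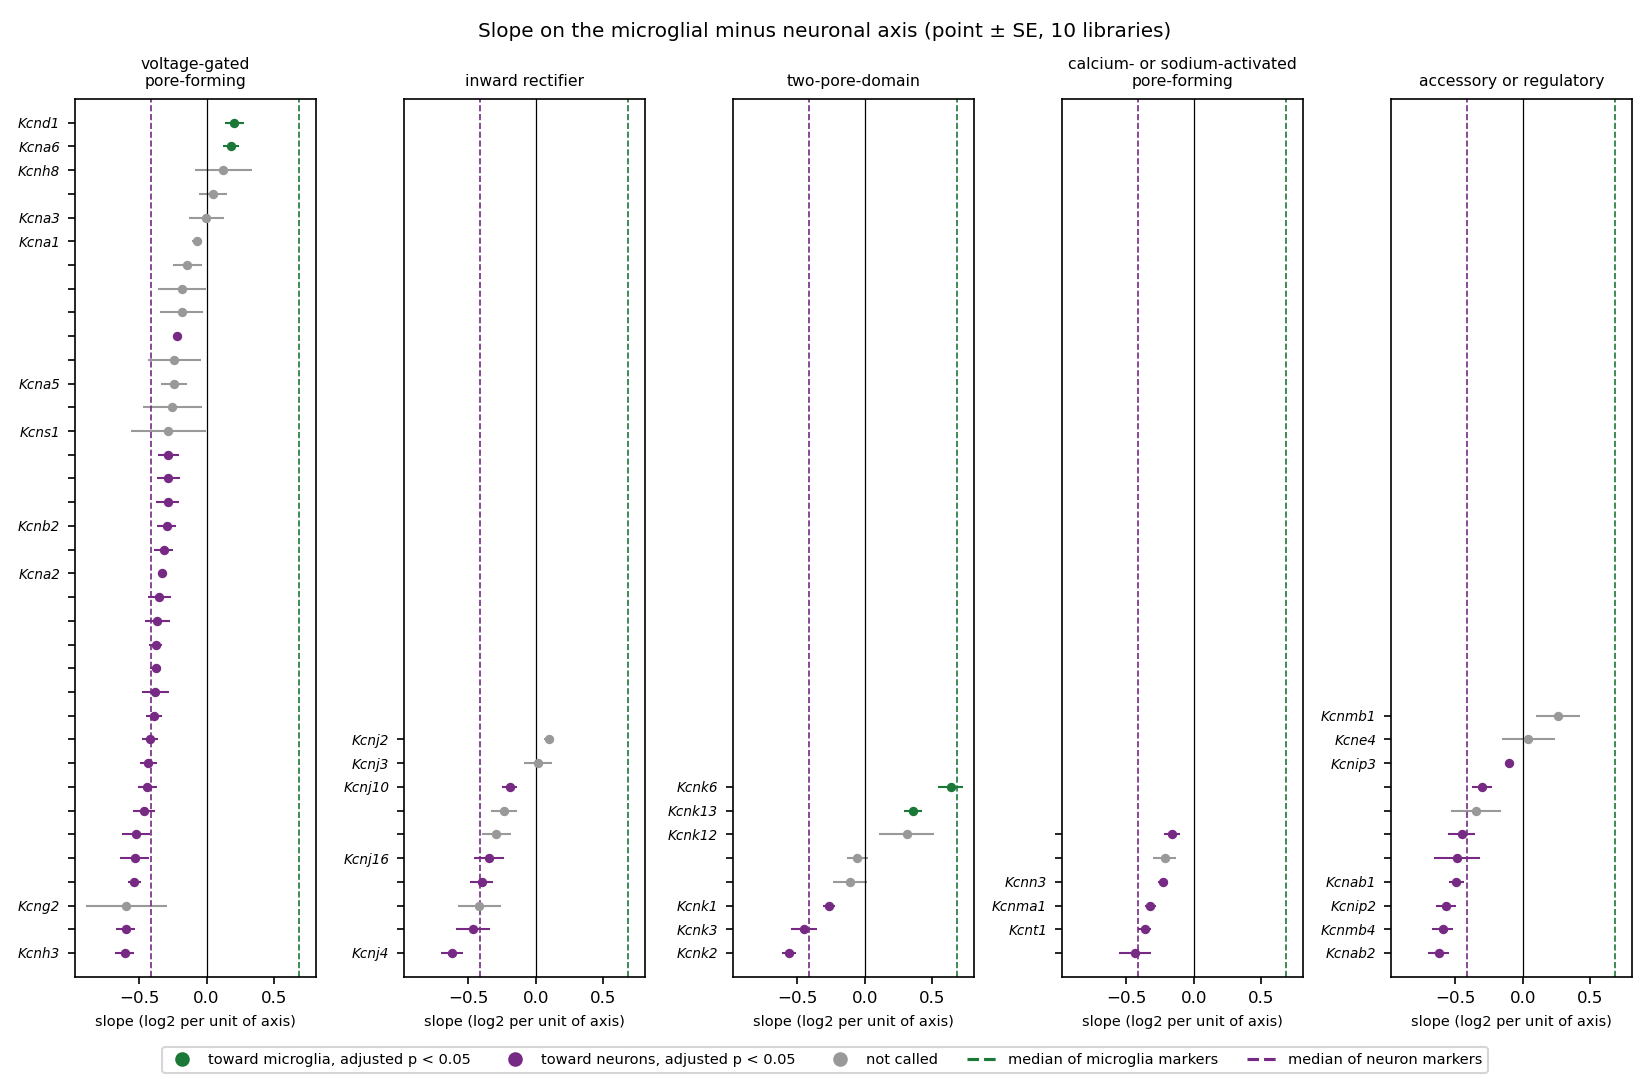
Slope of each tested potassium channel gene on the composition axis (log2 per unit of axis, lines show ± SE), in a panel per family; green and purple points are the genes called toward microglia and toward neurons, grey points were not called, genes described in the text are named, and dashed lines mark the median slopes of the microglia markers (0.68) and neuron markers (-0.41). Kcnk6 at 0.64 lies beside the microglia median, Kcnk13 at 0.36 comes next, and most other genes lie below 0.

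The 4 genes called toward microglia were Kcnk6, Kcnk13, Kcna6 and Kcnd1. Kcnk6 (chr7:29221928-29232522, minus strand, GRCm38.p6) encodes the K2P channel TWIK2, which lets potassium out of mouse macrophages. It had 33.4, 2.76, 49.2, 48.2 and 6.97 CPM in A53T replicates 1 to 5, against 4.01, 10.6, 3.80, 13.6 and 18.9 CPM in EV replicates 1 to 5. A53T replicates 1, 3 and 4 lay above every EV library and A53T replicate 2 below every one, so the groups overlapped. Its slope was 0.64 ± 0.092 log2 per unit (SE, edgeR adjusted p = 1.27e-04), and over the 10 libraries its log2 CPM had Pearson's r = 0.94 with the axis (permutation p = 1e-05, the smallest 100000 resamples can give, adjusted 5.17e-04 over 17409 genes) and Spearman's rho = 0.98 (permutation p = 1e-05, adjusted 0.00185). A53T replicates 3 and 4 lay farthest from the median of the axis, and without them r was 0.92 and the slope 0.85 (edgeR adjusted p = 0.00176). The slope stayed past the threshold with each library left out in turn, between 0.55 and 0.74. With the neuron score alone as the axis it was 1.28 (edgeR adjusted p = 0.0504). Among the marker lists, the log2 CPM of Kcnk6 had the highest r with that of homeostatic microglia, at 0.97. With that of oligodendrocytes r was 0.88.

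Kcnk13 (chr12:99963149-100062682, plus strand), the K2P channel THIK1 that carries the resting potassium current of microglia, had 13.2, 6.81, 29.5, 36.2 and 12.7 CPM in A53T replicates 1 to 5, against 8.92, 7.97, 7.60, 26.6 and 13.8 CPM in EV. A53T replicates 3 and 4 were the highest of the 10, EV replicate 4 came next, and the groups overlapped. Its slope was 0.36 ± 0.067 log2 per unit (SE, edgeR adjusted p = 9.07e-04), with r = 0.89 (permutation p = 4.4e-04, adjusted 0.00327) and rho = 0.89 (permutation p = 9.8e-04, adjusted 0.01). Without A53T replicates 3 and 4, r was 0.72 and the slope was again 0.36 but no longer called (edgeR adjusted p = 0.102). Of the marker lists, its log2 CPM had the highest r with that of oligodendrocytes, at 0.90, and an r of 0.88 with that of homeostatic microglia.

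Kcna6 (chr6:126708328-126740834, minus strand), a delayed rectifier of the Shaker group, had 39.5, 27.2, 69.0, 42.9 and 31.2 CPM in A53T replicates 1 to 5, against 24.4, 33.4, 18.6, 51.7 and 33.4 CPM in EV. A53T replicate 3 was the highest library and EV replicate 3 the lowest. The slope was 0.18 ± 0.057 (SE, edgeR adjusted p = 0.0251), and its only nearest marker list was that of oligodendrocytes. By the rule used, a gene's nearest lists were those within 0.1 of its highest r, if that highest r was at least 0.8. Kcnd1 (chrX:7823759-7838278, plus strand), a subunit of A-type currents, had 6.33, 5.26, 7.93, 14.6 and 4.42 CPM in A53T replicates 1 to 5, against 5.81, 6.32, 3.49, 6.59 and 8.55 CPM in EV, with A53T replicate 4 well above the rest. Its slope was 0.21 ± 0.069 (SE, edgeR adjusted p = 0.0332), and its nearest list was that of choroid plexus and ependyma. Both calls depended on single libraries. Kcna6 lost its call without A53T replicate 2, 3 or 5 or EV replicate 1 (slopes 0.14 to 0.19), and Kcnd1 without A53T replicate 2, 4 or 5 or EV replicate 5, with a slope of 0.14 and an edgeR adjusted p of 0.287 without A53T replicate 4. Without A53T replicates 3 and 4 together, neither was called, with slopes of 0.22 for Kcna6 and 0.13 for Kcnd1 (edgeR adjusted p = 0.155 and 0.609).

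**Figure D3:**
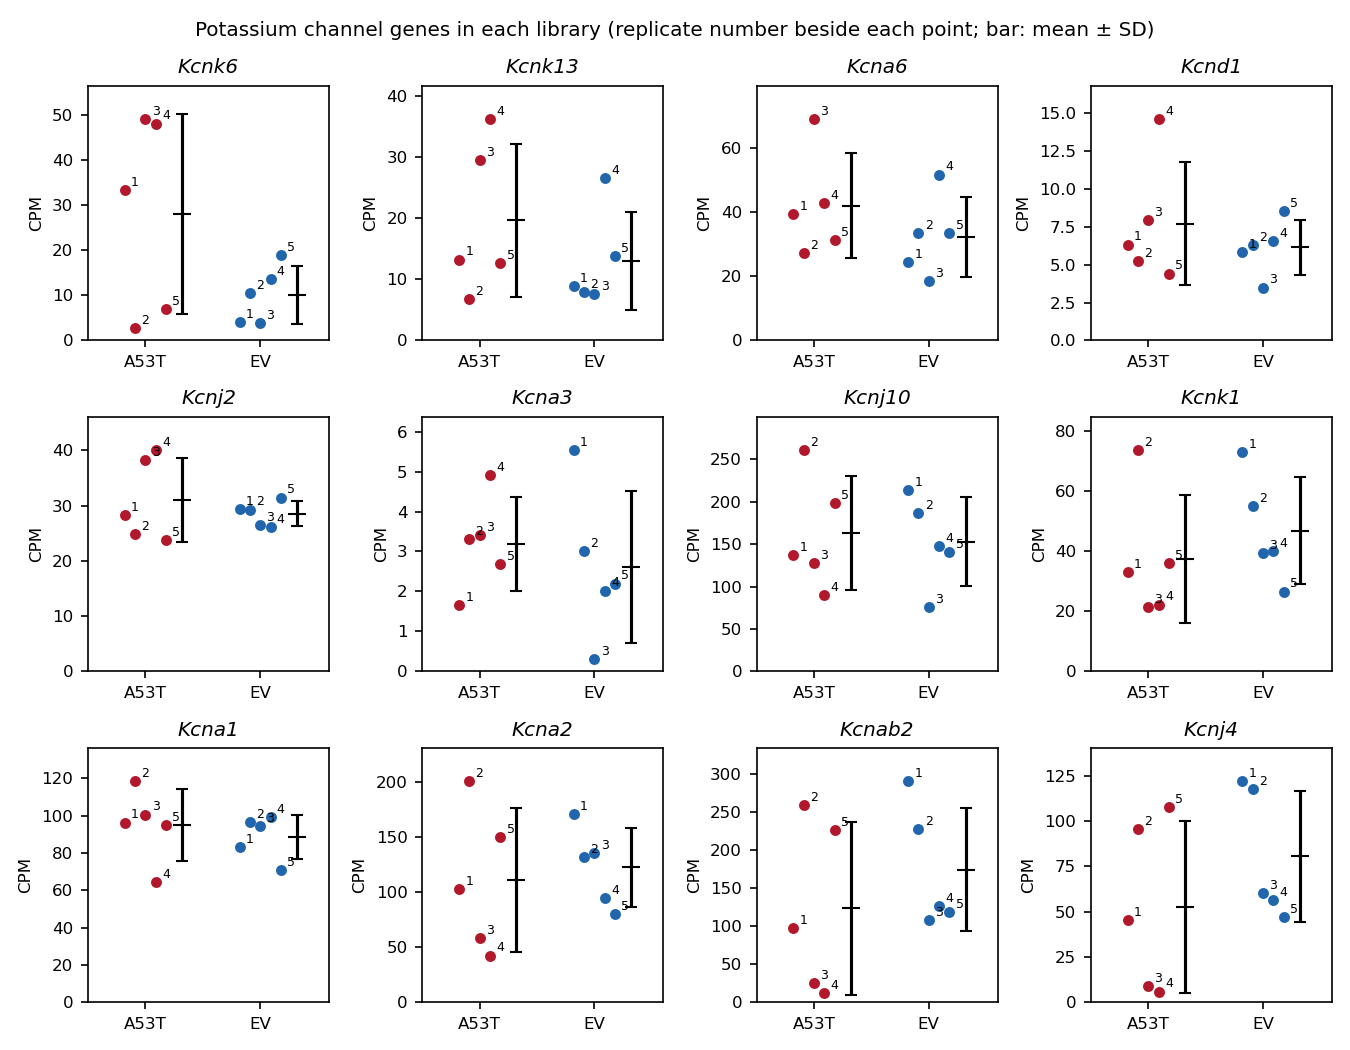
CPM of 12 potassium channel genes in each library, A53T left of EV, with the replicate number beside each point and bars for the mean ± SD of 5 libraries. Kcnk6 and Kcnk13 are highest in A53T replicates 3 and 4, where Kcna2 and Kcnab2 are lowest.

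Promoter windows are shown for the genes called toward microglia for which the RefSeq table (GRCm38.p6) had one, and for the 2 genes with the steepest slopes toward neurons, to set both kinds side by side. Each line gives the 250 bases before the transcription start, 5′ to 3′ on the gene's strand, for Kcnk13 (chr12:99964249-99964498, plus), Kcna6 (chr6:126740675-126740924, minus), Kcnab2 (chr4:152477550-152477799, minus) and Kcnj4 (chr15:79505242-79505491, minus). Capitals mark GAGGAA, the core bound by the myeloid factor PU.1, and GGGCGG, the GC box bound by Sp1, each searched on both strands (so also as TTCCTC and CCGCCC) and not overlapping each other.
Kcnk13: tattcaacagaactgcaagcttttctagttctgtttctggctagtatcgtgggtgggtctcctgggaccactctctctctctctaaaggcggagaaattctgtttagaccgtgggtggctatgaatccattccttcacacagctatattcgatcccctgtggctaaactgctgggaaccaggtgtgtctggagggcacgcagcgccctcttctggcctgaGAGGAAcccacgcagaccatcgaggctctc
Kcna6: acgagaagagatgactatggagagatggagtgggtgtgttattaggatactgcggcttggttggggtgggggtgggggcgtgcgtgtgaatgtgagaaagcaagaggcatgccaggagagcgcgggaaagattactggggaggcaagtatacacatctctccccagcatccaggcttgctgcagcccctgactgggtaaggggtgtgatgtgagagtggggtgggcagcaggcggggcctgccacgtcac
Kcnab2: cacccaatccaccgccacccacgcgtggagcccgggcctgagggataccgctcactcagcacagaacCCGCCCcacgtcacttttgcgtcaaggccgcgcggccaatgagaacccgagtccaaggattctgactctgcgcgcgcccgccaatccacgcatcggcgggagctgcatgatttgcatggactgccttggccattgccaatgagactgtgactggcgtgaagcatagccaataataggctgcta
Kcnj4: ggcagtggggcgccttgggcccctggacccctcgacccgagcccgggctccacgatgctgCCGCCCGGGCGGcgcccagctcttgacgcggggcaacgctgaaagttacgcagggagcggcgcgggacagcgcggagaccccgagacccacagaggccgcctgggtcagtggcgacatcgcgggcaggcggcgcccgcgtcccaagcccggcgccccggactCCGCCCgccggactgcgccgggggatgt
The Kcnk13 window held 1 GAGGAA and no GGGCGG, the Kcna6 window neither, the Kcnab2 window 1 GGGCGG and the Kcnj4 window 3. The starts that the Kcnk13, Kcna6 and Kcnj4 windows precede lie 1350, 160 and 7270 bases inside the gene's row, and that of Kcnab2 at its start. Of the 78 genes 55 matched the table. GAGGAA was found in 16 of the 55 windows (29.1%) and in 23.3% of all 32851 windows of this length, and in 7 of the 30 windows of genes called toward neurons. GGGCGG was found in 30 of the 55 (54.5%), in 32.7% of all windows, and in 17 of the 30. The median GC content was 62.2% in those 30 windows, 61.8% in the 18 windows of potassium channel genes tested but not called, and 52.4% in all windows. These matches describe the letters of the windows only.

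The genes called toward neurons included channels that shape firing, though others of that kind, such as Kcna1, were not called. Kcnab2, the beta subunit that assembles with Shaker channels in axons, had 97.2, 259, 25.2, 11.7 and 226 CPM in A53T replicates 1 to 5, against 290, 228, 109, 127 and 118 CPM in EV. EV replicate 1 was the highest library, and A53T replicates 3 and 4 were far below all others. The slope was -0.62 ± 0.076 (SE, edgeR adjusted p = 3.4e-05), the steepest of the called genes, and -0.39 without A53T replicates 3 and 4. Kcnj4, an inward rectifier of forebrain neurons, had 45.5, 95.5, 9.20, 5.97 and 108 CPM in A53T replicates 1 to 5, against 122, 118, 60.4, 56.3 and 46.8 CPM in EV. Its slope was -0.62 ± 0.081 (SE, edgeR adjusted p = 5.41e-05), and -0.37 without A53T replicates 3 and 4 (edgeR adjusted p = 0.0257).

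Kcna2, which repolarizes axons, had the smallest p of the family. It had 103, 201, 58.4, 42.5 and 150 CPM in A53T replicates 1 to 5, against 171, 132, 136, 95.01 and 80.4 CPM in EV. Its slope was shallower than that of Kcnab2, at -0.33 ± 0.028 (SE, edgeR adjusted p = 4.38e-06), with r = -0.99 (permutation p = 2e-05, adjusted 5.96e-04) and rho = -0.95 (permutation p = 1.3e-04, adjusted 0.00396), and r was -0.96 without A53T replicates 3 and 4. Kcnh3 had 60.1, 166, 14.7, 8.32 and 141 CPM in A53T, against 148, 119, 75.5, 74.5 and 70.3 CPM in EV, with a slope of -0.61 ± 0.070 (SE, edgeR adjusted p = 2.31e-05). A53T replicates 3 and 4 were again the lowest libraries. Of the accessory subunits, Kcnip2 had a slope of -0.57 ± 0.073, the neuronal BK subunit Kcnmb4 -0.59 ± 0.079, and the beta subunit Kcnab1 -0.49 ± 0.056 log2 per unit (SE). Among the calcium- or sodium-activated channels, Kcnma1, the BK pore, had -0.32 ± 0.042, the sodium-activated Kcnt1 -0.36 ± 0.049, and Kcnn3, an SK channel of dopamine neurons, -0.23 ± 0.037 (SE). These 3 genes were at 36.2 to 173 CPM, 19.6 to 113 CPM and 17.3 to 49.6 CPM in A53T, and at 92.9 to 188 CPM, 51.5 to 114 CPM and 31.7 to 55.3 CPM in EV. The slopes were shallower without A53T replicates 3 and 4. Kcnh3 stood at -0.36, Kcnip2 at -0.33, Kcnmb4 at -0.40 and Kcnab1 at -0.34 log2 per unit, all still called (edgeR adjusted p = 0.0079 to 0.0156). Kcnma1 at -0.27 and Kcnt1 at -0.31 were called as well (edgeR adjusted p = 0.0301 and 0.00867), whereas Kcnn3 at -0.21 was not (edgeR adjusted p = 0.0609).

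**Figure D4:**
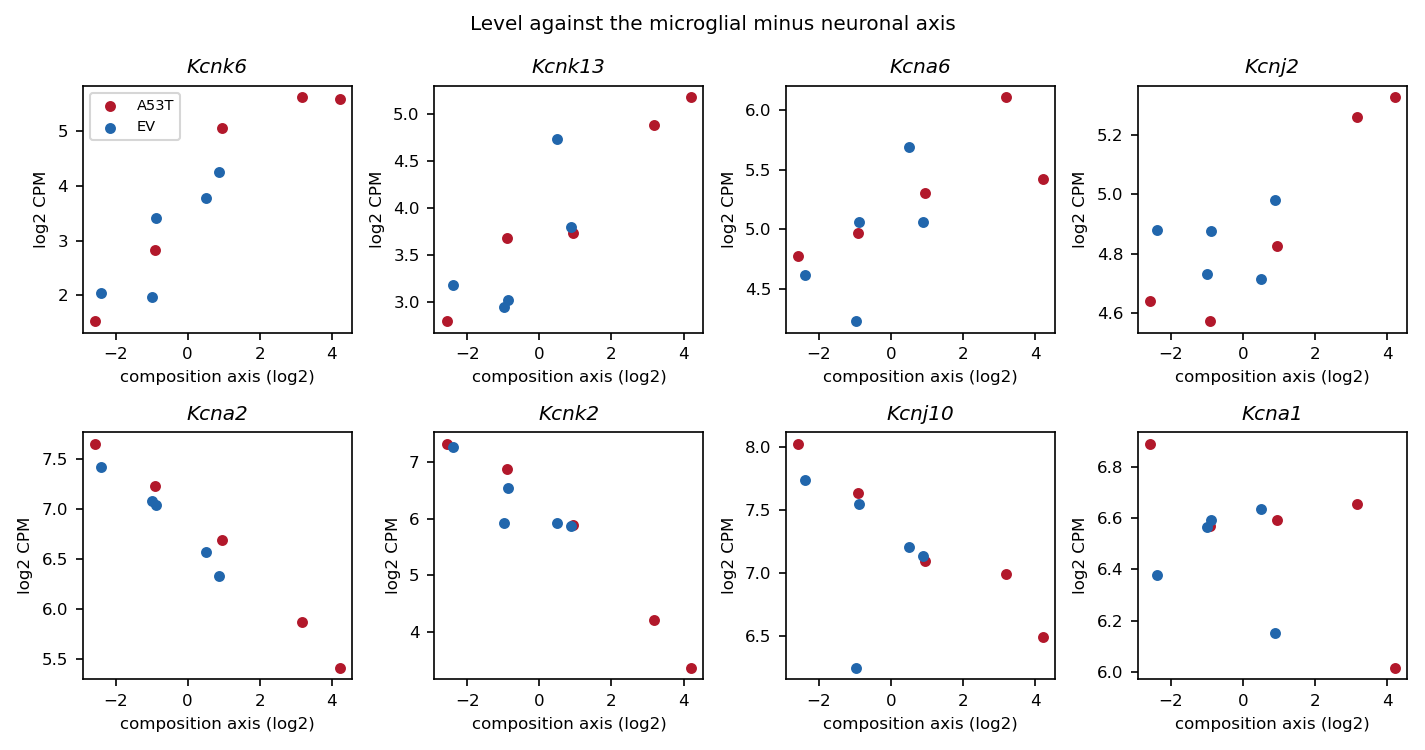
Log2 CPM of 8 genes against the composition axis (log2 units), 1 point per library, A53T in red and EV in blue. Kcnk6 climbs along the axis, Kcna2 and Kcnk2 descend along it, Kcnj10 descends apart from EV replicate 3, and A53T replicates 3 and 4 are the 2 points at the right end.

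Channels known from astrocytes went with the neuronal end, by differing amounts. Kcnj10 (chr1:172341210-172374085, plus strand) had 137, 261, 127, 89.7 and 198 CPM in A53T replicates 1 to 5, against 214, 187, 75.9, 148 and 141 CPM in EV. EV replicate 3 was the lowest library although it lay at the neuronal side of the axis, and the slope was shallow at -0.19 ± 0.053 log2 per unit (SE, edgeR adjusted p = 0.0119). The call was lost without A53T replicate 2 (-0.18, edgeR adjusted p = 0.0927) or A53T replicate 4 (-0.17, edgeR adjusted p = 0.0727), and without A53T replicates 3 and 4 together (-0.19, edgeR adjusted p = 0.23). No marker list had r of 0.8 with Kcnj10. Kcnj16, which assembles with Kcnj10, had 8.10, 17.5, 8.07, 1.62 and 25.3 CPM in A53T, against 9.61, 19.6, 11.2, 9.75 and 12.4 CPM in EV. Its slope was -0.35 ± 0.11 (SE, edgeR adjusted p = 0.0259), and -0.20 (edgeR adjusted p = 0.175) without A53T replicate 4 and -0.28 (edgeR adjusted p = 0.0692) without A53T replicate 5. Without A53T replicates 3 and 4 together it was -0.14 (edgeR adjusted p = 0.649). The K2P channels Kcnk2, at -0.56 ± 0.054, and Kcnk1, at -0.27 ± 0.043, were called toward the neuronal end in the fits with all libraries and with each left out (SE, edgeR adjusted p = 7.72e-06 and 3.15e-04 with all libraries). Both were also called without A53T replicates 3 and 4, Kcnk2 at -0.41 and Kcnk1 at -0.35 (edgeR adjusted p = 0.00279 and 0.00981). Kcnk2 had 59.3, 161, 18.2, 10.1 and 117 CPM in A53T, against 154, 93.2, 60.9, 60.8 and 58.7 CPM in EV, a pattern close to that of the channels called toward neurons above. Kcnk1 had 33.0, 73.6, 21.5, 22.2 and 35.95 CPM in A53T, against 73.0, 55.1, 39.4, 40.0 and 26.6 CPM in EV. The highest r of Kcnk2 was with the astrocyte list, at 0.98, beside 0.97 with the neuron list. For Kcnk1 these were 0.92 and 0.78, with 0.87 for a list of striatal projection neurons. Kcna2 too had its highest r with the astrocyte list, at 0.97, beside 0.92 with the neuron list.

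Other genes had no call on the axis or were too low to be tested. Kcnj2, a strong inward rectifier found in microglia, neurons and vessels, had 28.2, 24.9, 38.2, 40.0 and 23.7 CPM in A53T, against 29.3, 29.3, 26.5, 26.1 and 31.4 CPM in EV, with a slope of 0.10 ± 0.036 that missed the threshold (SE, edgeR adjusted p = 0.0509). Its log2 CPM had r = 0.82 with the axis (permutation p = 0.0049, adjusted 0.0185) and rho = 0.66 (permutation p = 0.0429, adjusted 0.112), but r was 0.34 without A53T replicates 3 and 4, so the relation rests on them. Kcna1, the partner of Kcna2 in axons, varied least of the 78 genes, at 64.6 to 119 CPM in A53T and 70.9 to 99.3 CPM in EV (a coefficient of variation of 16.9% over the 10 libraries), with a slope of -0.07 ± 0.037 (SE, edgeR adjusted p = 0.151). Of the channels of activated microglia, Kcna3 had 1.66, 3.30, 3.42, 4.90 and 2.67 CPM in A53T, against 5.53, 3.01, 0.317, 2.02 and 2.20 CPM in EV, with no call on the axis (edgeR adjusted p = 0.995). Kcnn4 was too low to be tested, with 130 reads in all and 4 libraries at 0. Kcne2, an accessory subunit of choroid plexus epithelium, was at 0 in 6 libraries and highest in A53T replicate 4 at 3.14 CPM and A53T replicate 3 at 0.957 CPM. Over all libraries, the summed level of 9 choroid plexus and ependyma markers ranged from 97.6 to 986 CPM in A53T and from 129 to 319 CPM in EV. The 6 of these markers that passed the filter had their highest mean log2 CPM in A53T replicate 4 at 5.04 and A53T replicate 3 at 4.13. Their part in the Kcne2 value was not tested. The K2P channel Kcnk12, a close relative of Kcnk13, had a slope of 0.31 ± 0.20 (SE, edgeR adjusted p = 0.26) at 0.373 to 2.36 CPM in A53T and 0 to 1.62 CPM in EV. Its log2 CPM had r = 0.62 with the axis (permutation p = 0.0539, adjusted 0.114) and rho = 0.83 (permutation p = 0.00478, adjusted 0.0262), so that its ranks followed the axis past the threshold, and without A53T replicates 3 and 4 r was 0.46 and the slope 0.46 (edgeR adjusted p = 0.599).

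Markers of vessels had a median slope of 0.077 over 12 of endothelial cells and of 0.16 over 9 tested of pericytes and smooth muscle, of which 1 and 3 were called toward microglia. Among channel genes known from vessels, Kcne4 had a slope of 0.04 ± 0.20 (SE, edgeR adjusted p = 0.897) and Kcna5, a delayed rectifier of arteries, -0.24 ± 0.099 (SE, edgeR adjusted p = 0.073). Kcnk3, an acid-sensitive background channel, was called toward neurons at -0.45 ± 0.097 (SE, edgeR adjusted p = 0.00244), with 1.02 to 9.78 CPM in A53T and 2.65 to 8.71 CPM in EV, and was not called without A53T replicates 3 and 4 (-0.39, edgeR adjusted p = 0.179). By the rule on marker lists, 49 of the 78 genes had a nearest list or lists and 29 had none, against 38.2% with one among all 17409 genes tested. Neuron lists were among the nearest for 42 of the 49, against 46.5% of all genes with a nearest list, and for 35 of these 42 the astrocyte list was within reach too, against 86.7% of all genes near a neuron list.

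No potassium channel gene differed between A53T and EV past the threshold. By edgeR's quasi-likelihood test with Benjamini-Hochberg adjustment, 0 of 71 were called, and 0 of all 17409 genes (0%). An unadjusted p under 0.05 was reached by 378 genes in all, 1.47% of the genes tested higher in A53T and 0.701% lower. Among the 71 there were none higher and 3 lower, Kcnmb1, Kcnj3 and Kcns1. DESeq2 called 1 gene in all and no potassium channel gene, with 598 genes and 5 of the 71 at an unadjusted p under 0.05. limma-voom and limma on the rlog values called none, with 1202 and 448 genes and 9 and 4 of the 71 at an unadjusted p under 0.05. The values of all 78 genes overlapped between the groups, where 0.287% of all genes lay wholly higher in A53T and 0.144% wholly lower.

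In direction, 54 of the 71 were lower in A53T, with a median log2 fold change of -0.32, against 0.027 and 47.2% lower over all genes. The direction turned without A53T replicates 3 and 4, where 48 of 73 were higher in A53T and the median was 0.098. At the same position on the axis, with the axis as a covariate, 45 of 71 were lower with a median of -0.089, and none was called. The potassium channel genes took 1.35 to 3.06 of every 1000 counts in A53T and 2.35 to 2.91 in EV.

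**Figure D5:**
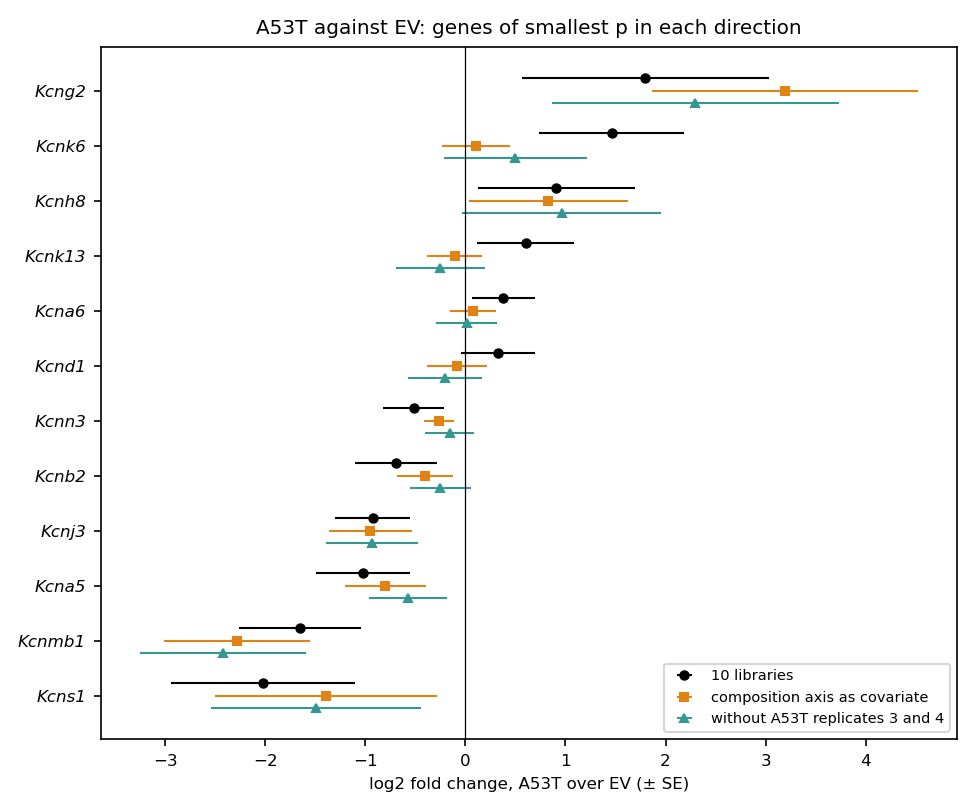
Log2 fold change of A53T over EV (lines show ± SE) for the 6 genes of smallest p in each direction, over the 10 libraries, with the composition axis as a covariate, and without A53T replicates 3 and 4. Kcnk6 stands at 1.46 over 10 libraries and at 0.11 with the covariate, while all 6 genes lower in A53T stay below 0 in the 3 fits.

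The smallest p was that of Kcnmb1, the smooth muscle beta subunit of BK channels (chr11:33962955-33973641, plus strand, inside Kcnip1 on the opposite strand). It had 0.467, 0.270, 0.729, 1.11 and 0.249 CPM in A53T, against 1.52, 0.859, 3.09, 1.92 and 1.67 CPM in EV. All A53T libraries but A53T replicate 4 lay below every EV library, at low levels with 204 reads in all. The log2 fold change was -1.65 ± 0.61 (SE, edgeR adjusted p = 0.957), -2.43 without A53T replicates 3 and 4, and -2.29 ± 0.73 at the same position on the axis (SE, edgeR adjusted p = 1.00). The strand setting of the counting is unknown, so its reads and those of Kcnip1 may be mixed. The summed level of 10 pericyte and smooth muscle markers was 196 to 673 CPM in A53T and 232 to 498 CPM in EV, and their part in this value was not tested.

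Kcnj3, the shared subunit of G protein-gated inward rectifiers, had 3.11, 2.43, 4.28, 2.45 and 4.48 CPM in A53T, against 2.91, 9.08, 9.35, 5.08 and 5.54 CPM in EV. EV replicate 1 fell among the A53T libraries and the other EV libraries lay above them. Its log2 fold change was -0.93 ± 0.38 (SE, edgeR adjusted p = 0.957), and it was also -0.93 without A53T replicates 3 and 4. Kcns1, a silent subunit that modifies other voltage-gated channels, had 1.19, 0.0674, 0.0456, 0.231 and 0.435 CPM in A53T, against 4.29, 0.675, 1.43, 0.674 and 1.10 CPM in EV. A53T replicate 1 lay among the EV libraries, 2 A53T values were under the 3-read limit, and the log2 fold change was -2.02 ± 0.92 (SE, edgeR adjusted p = 0.957). The next genes with lower values in A53T were Kcna5 (3.34 ± 1.91 CPM in A53T and 6.76 ± 2.32 CPM in EV), Kcnb2 (7.29 ± 3.87 and 11.8 ± 3.18 CPM, in the same order) and Kcnn3 (29.9 ± 13.6 and 42.8 ± 9.67 CPM, in the same order), each SD with n = 5 per group and each an edgeR adjusted p of 0.957.

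The 6 genes with the smallest p and higher values in A53T were Kcnk6, Kcng2, Kcnk13, Kcna6, Kcnh8 and Kcnd1, all with an edgeR adjusted p of 0.957. Kcnk6 averaged 28.1 ± 22.2 CPM in A53T and 10.2 ± 6.44 CPM in EV (SD, n = 5 each), a log2 fold change of 1.46 ± 0.72 (SE) that was 0.50 without A53T replicates 3 and 4 and 0.11 at the same position on the axis. Kcnk13 averaged 19.7 ± 12.5 CPM in A53T and 12.97 ± 7.99 CPM in EV, Kcna6 42.0 ± 16.4 CPM in A53T and 32.3 ± 12.5 CPM in EV, and Kcnd1 7.71 ± 4.08 CPM in A53T and 6.15 ± 1.82 CPM in EV (SD, n = 5 each). These were the 4 genes called toward microglia, and without A53T replicates 3 and 4 the log2 fold changes of Kcnk13 and Kcnd1 were -0.25 and -0.21 and that of Kcna6 was 0.01. Kcng2, another silent subunit, had 2.18, 2.02, 0.638, 0.277 and 0.933 CPM in A53T, against 1.25, 0.491, 0, 0 and 0 CPM in EV. It was not detected in EV replicates 3, 4 and 5, where 3 reads would have been 0.238, 0.156 and 0.143 CPM, and all 5 A53T values were above those limits. Kcnh8 averaged 1.73 ± 0.972 CPM in A53T and 0.909 ± 0.879 CPM in EV (SD, n = 5 each).

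Genes that work with potassium channels were compared in the same way. Over all genes, 17.7% were called toward neurons, 17.0% toward microglia, and 47.2% had lower values in A53T. Without A53T replicates 3 and 4, 5.20% of all genes were called toward neurons and 5.90% toward microglia. The median log2 fold change over all genes in that fit was -0.0075. Of 32 tested genes whose products bind or are co-assembled with potassium channels, 22 were called toward neurons and 4 toward microglia on the axis, and 6 had higher and 26 lower values in A53T, with a median log2 fold change of -0.30. This direction turned without A53T replicates 3 and 4, with 22 higher and 10 lower values in A53T and a median of 0.07, and 8 were called toward neurons and 3 toward microglia. The synaptic release protein Stx1a had 10.6 ± 2.61 CPM in A53T and 18.7 ± 8.30 CPM in EV, and the secreted Lgi1 17.2 ± 7.82 CPM in A53T and 25.2 ± 6.49 CPM in EV (SD, n = 5 each). Of 15 tested potassium pumps and cotransporters, 6 were called toward neurons and 4 toward microglia, with 7 higher and 8 lower values in A53T. There were again 7 higher and 8 lower without A53T replicates 3 and 4, and 4 were called toward neurons and 1 toward microglia. The sodium pump subunit Atp1b1 had a slope of -0.20 ± 0.041 and Atp1b3, another of its subunits, 0.18 ± 0.038 log2 per unit (SE, edgeR adjusted p = 0.00172 and 0.00261), so these subunits ran opposite ways; neither was called without A53T replicates 3 and 4, at -0.11 and 0.13 (edgeR adjusted p = 0.352 and 0.263). The sodium-potassium-chloride cotransporter Slc12a2 went toward microglia at 0.31 ± 0.048 (SE, edgeR adjusted p = 1.91e-04), and at 0.31 without those libraries (edgeR adjusted p = 0.0173). Hcn3, a pacemaker channel, had 2.58 ± 1.12 CPM in A53T and 4.28 ± 2.09 CPM in EV (SD, n = 5 each). Of 28 subunits of sodium and calcium channels, 26 were called toward neurons and none toward microglia, and all 28 had lower values in A53T, with a median log2 fold change of -0.37. Without A53T replicates 3 and 4, 22 had higher and 6 lower values in A53T with a median of 0.11, and 16 were called toward neurons and none toward microglia. Among them the T-type calcium channel Cacna1g had 5.94 ± 4.63 CPM in A53T and 12.3 ± 5.56 CPM in EV, and the accessory subunit Cacna2d1 had a slope of -0.28 ± 0.063 log2 per unit (SD, n = 5 each, for CPM, and SE for the slope). Without those libraries the log2 fold change of Cacna1g was -0.65, and the slope of Cacna2d1 was -0.22 and no longer called (edgeR adjusted p = 0.128). No gene of these 3 lists was called between A53T and EV (lowest edgeR adjusted p = 0.957), and 2 of the 75 tested, Stx1a and Cacna1g, had an unadjusted p under 0.05.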

How the data were processed

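Each mouse gave 1 library, made for very low RNA input with a kit that keeps strand. The authors deposited raw read counts per gene, not normalized, and a second table on a log2 scale, the rlog (regularized logarithm) transform of the counts. As tools, the submitters' processing notes list STAR 2.7.2b, cutadapt 2.5, DESeq2 1.24.0 and featureCounts 1.6.4, and as builds GRCm38.p6 and mm10. The sources used here do not say whether counting used strand, and 33 of the 78 genes overlap another gene, so their reads may be mixed. Counts carry no molecular identifiers, so limits from 3 reads cover counting error only.

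edgeR 4.0.16 in R 4.3.3 was run on the counts (quasi-likelihood F test, robust dispersions, TMM normalization, default filter on low counts), with 17409 genes passing the filter. Benjamini-Hochberg adjustment covered all of them, at a threshold of 0.05. A53T was compared with EV, and slopes on the composition axis were fitted with the group as a term. CPM are counts per 1000000 of the TMM-scaled library size, RPKM are CPM per kilobase of exon, and scores are means of log2 CPM with a prior count of 2. A standard error is the fitted log2 value divided by the root of its F statistic. Correlations with the axis used 100000 permutations and were 2-sided. The fits were tested on simulated counts. Libraries were compared in pairs, and no 2 agreed within sampling noise.

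The genes, marker lists and lists of related genes were chosen with earlier results of these data known. Named genes were the 6 of smallest p in each direction between A53T and EV, the 8 of smallest p in each direction on the axis, the 3 of highest RPKM in each family, genes known from a cell type, and the 3 of smallest p in each related list. A few genes meeting this rule are not described here. Kcna1, Kcnip3 and Kcnmb4 were added for their slope or spread after their values were seen. Alternatives were DESeq2 1.42.0, limma 3.58.1 with voom or on rlog values, other normalizations, filters, axes and covariates, a term for Bpifa2 reads, the replicate number as a block, and leaving out libraries.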

Additional observations from a re-analysis of the deposited data

How the results depend on the processing

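Depth limited the weakest of the 78 genes, of which 10 had a library at 0 and 7 did not pass the filter on low counts. The number of genes called between A53T and EV was 1 in place of 0 with DESeq2, with A53T replicates 3 and 4 left out and with the replicate block, and 0 to 1 with single libraries left out. No potassium channel gene was called between the groups in any fit. Of the 43 genes called toward neurons, 16 were called without A53T replicates 3 and 4, against 5.20% of all genes. The replicate block kept 26, against 6.80% of all genes. With single libraries left out, 31 to 46 potassium channel genes were called toward neurons, against 13.5 to 19.2% of all genes. The fewest were called without A53T replicate 4, against 13.6% of all genes, and 13 calls of either direction were lost there. Of the 4 called toward microglia, 1 was called without A53T replicates 3 and 4, against 5.90% of all genes. The replicate block kept 1 and the Bpifa2 term 2, against 6.62% and 11.9% of all genes. With single libraries left out, 2 to 5 potassium channel genes were called toward microglia, against 10.7 to 19.4% of all genes. The slope of Kcnk13 was 0.22 in the block (edgeR adjusted p = 0.161). The replicate numbers did not pair the libraries: the correlation of same-numbered deviations ran from -0.37 to 0.31, and 1 of 10 libraries correlated best with its own number. Other normalizations, filters and axes left these counts within 1.5 times the values given. The sign of the log2 fold change was followed for the named genes of smallest p between A53T and EV and in the related lists. Among these it turned for Kcnd1, Kcnk13, Atp1b3 and Slc12a2, to -0.21, -0.25, -0.060 and -0.20 without A53T replicates 3 and 4. With the axis as a covariate the values were -0.082, -0.11, -0.00871 and -0.14, in the same order. For Kcnd1 the value was -0.039 without A53T replicate 4 (-0.039 to 0.47 with single libraries left out). Other channel genes turned as well without A53T replicates 3 and 4, such as Kcnab2 from -0.49 to 0.15 and Kcna2 from -0.14 to 0.30. The slope was followed for the named genes only. Among those not called, it turned for Kcna3 (-0.0015 with all libraries) to 0.0047 on rlog values, 0.026 with voom and 0.15 on the neuron score. For Kcna3 it was also 0.0024 with no filter, 0.027 with no group term and 0.18 in the block. Without A53T replicate 2 or EV replicate 1, 4 or 5 it was 0.0027, 0.088, 0.012 and 0.011. It turned for Kcne4 to -0.11 without A53T replicates 3 and 4, -0.00907 with voom, -0.053 with no group term, and -0.059 and -0.048 without A53T replicate 4 or 5 (up to 0.098 without EV replicate 4), and for Kcnj3 to -0.051 on the neuron score, -0.090 with no group term, and -0.065, -0.026 and -0.045 without A53T replicate 2 or 3 or EV replicate 1 (up to 0.088 without A53T replicate 4). It turned for Kcnh8 to -0.11 in the block and -0.20 with the Bpifa2 term, for Hcn3 to -5.61e-04 with the Bpifa2 term, and for Kcnmb1 to -0.026 with no group term. The cause was not tested.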
